A study of Mus musculus with 8 samples.

Results

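The matrix protease genes examined were 9 genes chosen by symbol among 21887 protein-coding genes. They were the matrix metalloproteinase genes Mmp2, Mmp8, Mmp9, Mmp12, Mmp13, Mmp14 and Mmp19, the membrane protease gene Adam8 and the protease inhibitor gene Timp1. They were followed in 8 ChIP-seq libraries of acetylated histone H4. The cells were macrophages grown from the bone marrow of C57BL/6 mice. The groups were 25HC then PAM3, PAM3, 25HC and untreated, and each had a library from mouse A and another from mouse B. 25HC is 25-hydroxycholesterol, an oxysterol that macrophages make themselves. PAM3 is PAM3CSK4, a synthetic lipopeptide that activates Toll-like receptor 2. The sources used here do not give doses, age or sex, and all libraries share the genotype and the cell type. The stimulation time is labelled 18, without a unit, in the 4 libraries with PAM3 and 0 in the 4 without, so PAM3 and that time cannot be told apart. With 1 library per mouse and group, p-values measure the spread between the 2 libraries of a group, pooled over the 4 groups. Differences between mice and between libraries cannot be told apart in it.

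Matrix metalloproteinases are zinc proteases that cut collagens, elastin and other matrix proteins, and many also cut cytokines and chemokines. Most are secreted as inactive proforms, and tissue inhibitors of metalloproteinases block the active enzymes. Macrophages use these enzymes to move through tissue and to remodel it. Acetylation of histone H4 is a mark of active promoters and enhancers, and it measures chromatin rather than RNA or protein.

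The deposited files list the peaks called by the authors in each library. Called length is the number of bp inside peaks within a gene's window, which was the gene body on GRCm38 with 5 kb on either side. The libraries held 48446 to 54552 peaks that covered 56.6 Mb (PAM3, mouse A) to 72.4 Mb (PAM3, mouse B). The read depth is unknown, because the files hold no read counts. A peak is present or absent at the authors' threshold, so an absent peak is not an absent mark, and fewer marked cells cannot be told apart from less mark per cell. All 9 macrophage marker genes examined, Adgre1, Csf1r and Spi1 among them, had peaks in all 8 libraries. Of 10 neutrophil marker genes, 5 had peaks in all 8, whereas S100a9, Ly6g, Ngp and Cxcr2 had none in any. Of 8 fibroblast marker genes, only Pdgfrb had peaks in all 8, and Col1a2, Col3a1, Dcn and Thy1 had none. Of 6 osteoclast marker genes, 4 had peaks in all 8, and Calcr had none.

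Of the 9 genes, 8 had enough called length to be tested (a mean of at least 500 bp over the 8 libraries), and Timp1 did not. Their windows held 204 peaks, which joined into 33 regions of overlapping peaks. A peak was present in all 8 libraries at 16 of the 33 regions (48.5%), against 29.8% of 83299 regions genome-wide. These shares are of unlike sets, since the genome-wide regions were not limited to gene windows. Some of the 33 regions also lay in neighbouring genes. Mmp8, Adam8 and Mmp14 had the most called length for the size of their windows, with means over the 8 libraries of 28.9%, 26.4% and 26.0%. Mmp19 followed with 21.0%, Mmp9 with 18.8% and Mmp2 with 16.9%. Mmp13 with 7.83% and Mmp12 with 4.50% lay below the median of all genes tested, which was 8.33%, and Timp1 had 1.06%. The 2 genes with little called length among those tested were also the most variable. Their coefficients of variation over the libraries were 84.7% for Mmp13 and 64.7% for Mmp12, against 10.1% for Mmp2 and 12.7% for Adam8.

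**Figure D1:**
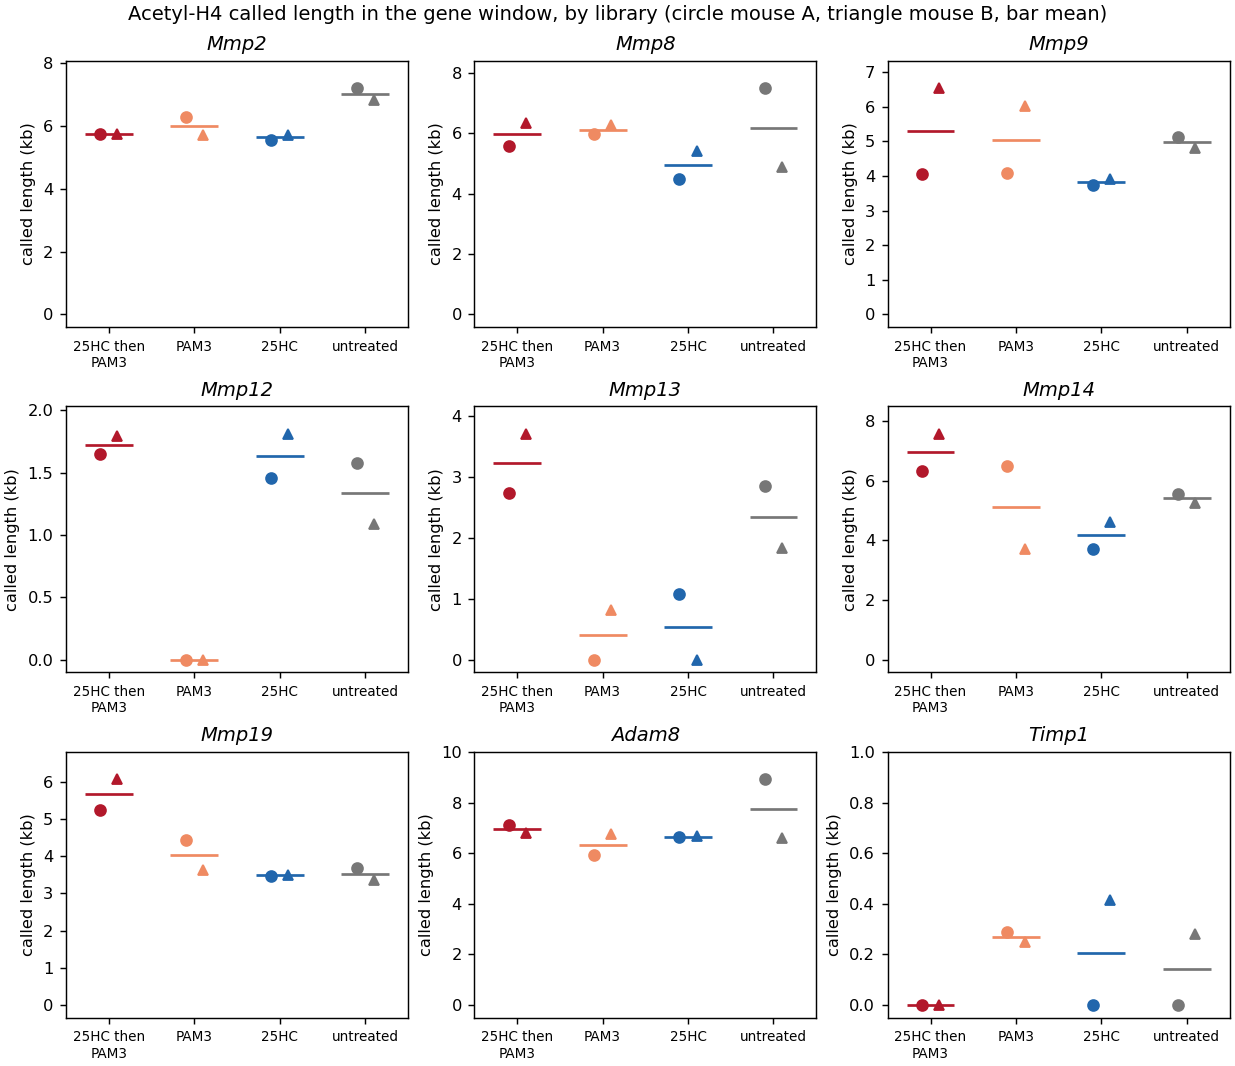
Called length of acetyl-H4 peaks in the window of each gene (kb), by group, with a circle for mouse A, a triangle for mouse B and a bar for the mean of 2 libraries; vertical scales differ between genes. Mmp12 stands at 0 in both PAM3 libraries, and Mmp19 is highest in both 25HC then PAM3 libraries.

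Mmp12 encodes macrophage elastase, which degrades elastin. It was the only one of the 9 genes whose called length passed the test in any comparison, and it lost its peaks with PAM3 alone. The Mmp12 window held 1652 and 1792 bp in the 25HC then PAM3 libraries of mice A and B, 0 and 0 bp in the PAM3 libraries, 1455 and 1813 bp in the 25HC libraries, and 1579 and 1090 bp in the untreated libraries. The PAM3 libraries thus stood apart from the other 6. Among those, the 25HC libraries overlapped both other groups, and both untreated libraries were below both 25HC then PAM3 libraries. The share of all genes with that last order was not counted. Called length averaged 1722 ± 99.0 bp with 25HC then PAM3, 0 bp with PAM3, 1634 ± 253 bp with 25HC and 1334.5 ± 346 bp in untreated cells (SD, n = 2 each). Windows at 0 in both PAM3 libraries and called in the other 6 made up 0.267% of the genes tested (39 of 14589).

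Mmp12 fell with PAM3 against untreated cells (limma with Benjamini-Hochberg adjustment over 14589 genes, adjusted p = 0.0170). In that comparison 1 of the 8 genes tested passed, against 3.87% of all genes in either direction and 1.97% lower. Mmp12 was higher with 25HC then PAM3 than with PAM3 alone (limma, adjusted p = 0.0220), again as 1 of 8 genes, against 1.3% of all genes in either direction and 0.665% higher. With the mouse as a block the adjusted p of that comparison was 0.0730, and it passed in 3 of the 8 fits that left out 1 library (adjusted p 0.0165 to 0.0699 in limma). The calls ended without 25HC mouse A or B, without 25HC then PAM3 mouse B, and without untreated mouse A or B. The fall with PAM3 against untreated passed in 7 of 8 such fits and ended without untreated mouse A (limma, adjusted p = 0.0638). A group with both libraries at 0 shows no spread, so these adjusted p-values can be too small, and no fold is given against a listed 0. Between 25HC then PAM3 and 25HC alone, Mmp12 had an adjusted p of 0.961 in limma. The difference between the PAM3 responses with and without 25HC did not pass for Mmp12 (limma, adjusted p = 0.135), so its PAM3 response was not shown to depend on 25HC.

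The peaks of Mmp12 lay in and beside its first part. The gene lies on chromosome 9 (chr9:7344397-7360461, GRCm38), and RefSeq lists 2 starts that are 2977 bp apart. The principal region (chr9:7344982-7346930) lay between them, from 585 bp after the first start to 444 bp before the second. Peak lengths there were 1100 and 1548 bp with 25HC then PAM3, 0 and 0 bp with PAM3, 1193 and 1813 bp with 25HC, and 1251 and 1090 bp in untreated cells. The pattern of a peak in the other 6 libraries and in neither PAM3 library occurred at 0.547% of regions genome-wide. A second region, 3035 bp before the first start (chr9:7340641-7341362), was called only with 25HC then PAM3, at 552 bp in mouse A and 244 bp in mouse B. Regions with a peak in both of those libraries and in no other made up 2.3% of all regions. Another region (chr9:7343800-7344136) was called only in mouse A, at 262 bp with 25HC and 328 bp in untreated cells. No other gene body lay in the window of Mmp12.

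The promoters of Mmp12 are shown because the region that was absent with PAM3 lay between them. Sequences are from RefSeq on GRCm38.p6, cover 250 bases before to 50 bases after the annotated start, and are written 5′ to 3′. Capitals mark matches, on either strand, to the letters searched for AP-1 (TGANTCA), for the TATA box (TATAAA), for ETS factors (AGGAAG) and for C/EBP (TTGCNNAA). NF-kB was searched as GGGA, any 4 bases and then CC.
Mmp12 first start (chr9:7344147-7344446, plus strand): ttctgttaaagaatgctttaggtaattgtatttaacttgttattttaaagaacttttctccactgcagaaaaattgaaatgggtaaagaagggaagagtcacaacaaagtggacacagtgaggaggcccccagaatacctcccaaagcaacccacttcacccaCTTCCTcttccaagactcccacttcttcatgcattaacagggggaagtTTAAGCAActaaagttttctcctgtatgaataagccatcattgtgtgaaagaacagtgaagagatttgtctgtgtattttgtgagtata
Mmp12 second start (chr9:7347124-7347423, plus strand): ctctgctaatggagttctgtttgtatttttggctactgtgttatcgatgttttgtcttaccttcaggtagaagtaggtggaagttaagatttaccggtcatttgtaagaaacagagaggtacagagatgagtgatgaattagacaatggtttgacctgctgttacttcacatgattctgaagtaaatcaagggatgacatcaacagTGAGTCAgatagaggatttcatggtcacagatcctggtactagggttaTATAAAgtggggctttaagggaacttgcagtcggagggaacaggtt
Mmp13 (chr9:7272264-7272563, plus strand): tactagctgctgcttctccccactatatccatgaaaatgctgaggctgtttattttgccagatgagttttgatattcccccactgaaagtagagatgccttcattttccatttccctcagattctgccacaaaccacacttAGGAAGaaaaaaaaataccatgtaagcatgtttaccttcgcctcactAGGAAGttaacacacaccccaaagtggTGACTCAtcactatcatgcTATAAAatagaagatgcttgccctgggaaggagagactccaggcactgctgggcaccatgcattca
No match overlapped another. The second Mmp12 promoter held an AP-1 match at position -44 from its start and a TATA match at position 5. The first Mmp12 promoter held an ETS match at position -87 and a C/EBP match at position -39. Neither of these Mmp12 promoters overlapped a peak in any of the 8 libraries. The Mmp13 promoter held an AP-1 match at position -35, a TATA match at position -16 and ETS matches at positions -109 and -62. Over 32851 promoters of this length in the table, 7.81% held the AP-1 letters, 13.6% the TATA letters, 35.4% the ETS letters, 20.7% the NF-kB letters and 10.8% the C/EBP letters. Among the 7 promoters available for 6 of the 9 genes, 2 held AP-1, 3 TATA, 5 ETS, 1 NF-kB and 3 C/EBP. A match describes the letters and is not evidence of a bound factor.

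Mmp13 encodes a collagenase that cleaves fibrillar collagen in rodents, and Mmp8 encodes the collagenase first described in neutrophils. Both lie on chromosome 9 in one cluster with Mmp12, with 61063 bp between Mmp13 and Mmp12 and 197967 bp between Mmp12 and Mmp8. Mmp13 (chr9:7272514-7283333) had 2737 and 3712 bp with 25HC then PAM3, 0 and 823 bp with PAM3, 1085 and 0 bp with 25HC, and 2847 and 1830 bp in untreated cells. Called length was thus longer with both agents or with neither, and shorter with either alone, where each group had 1 library at 0. Mmp13 averaged 3224.5 ± 689 bp with 25HC then PAM3, 411.5 ± 582 bp with PAM3, 542.5 ± 767 bp with 25HC and 2338.5 ± 719 bp in untreated cells (SD, n = 2 each).

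None of these Mmp13 differences passed. The log2 scale takes called bp + 500 and sets the median gene of every library to 0. On it, 25HC then PAM3 minus 25HC was 2.03 (SE 0.65, limma adjusted p = 0.145). PAM3 minus untreated was −1.73 for Mmp13 (limma adjusted p = 0.227), and 25HC then PAM3 minus PAM3 was 2.17 (limma adjusted p = 0.202). For 25HC minus untreated, Mmp13 had −1.59 (limma adjusted p = 1). Without 25HC mouse A or B, that value was −2.45 or −0.72 and 25HC then PAM3 minus 25HC was 2.89 or 1.17. The PAM3 response of Mmp13 with 25HC minus that without was 3.76 (SE 0.92), with an adjusted p of 0.280 in limma. In both mice the Mmp13 response was positive with 25HC and negative without it. Opposite signs in both mice, in either order, were found in 9.92% of all genes tested.

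All called length of Mmp13 came from 1 region that spanned its start (chr9:7270106-7273858). Where called, the peak covered the whole promoter window printed above: 300 and 300 bp with 25HC then PAM3, 0 and 300 bp with PAM3, 300 and 0 bp with 25HC, and 300 and 300 bp in untreated cells. The groups differed mostly in how far the peak reached upstream of the start, as the map of Mmp12 and Mmp13 shows. No other gene body lay in the Mmp13 window.

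**Figure D2:**
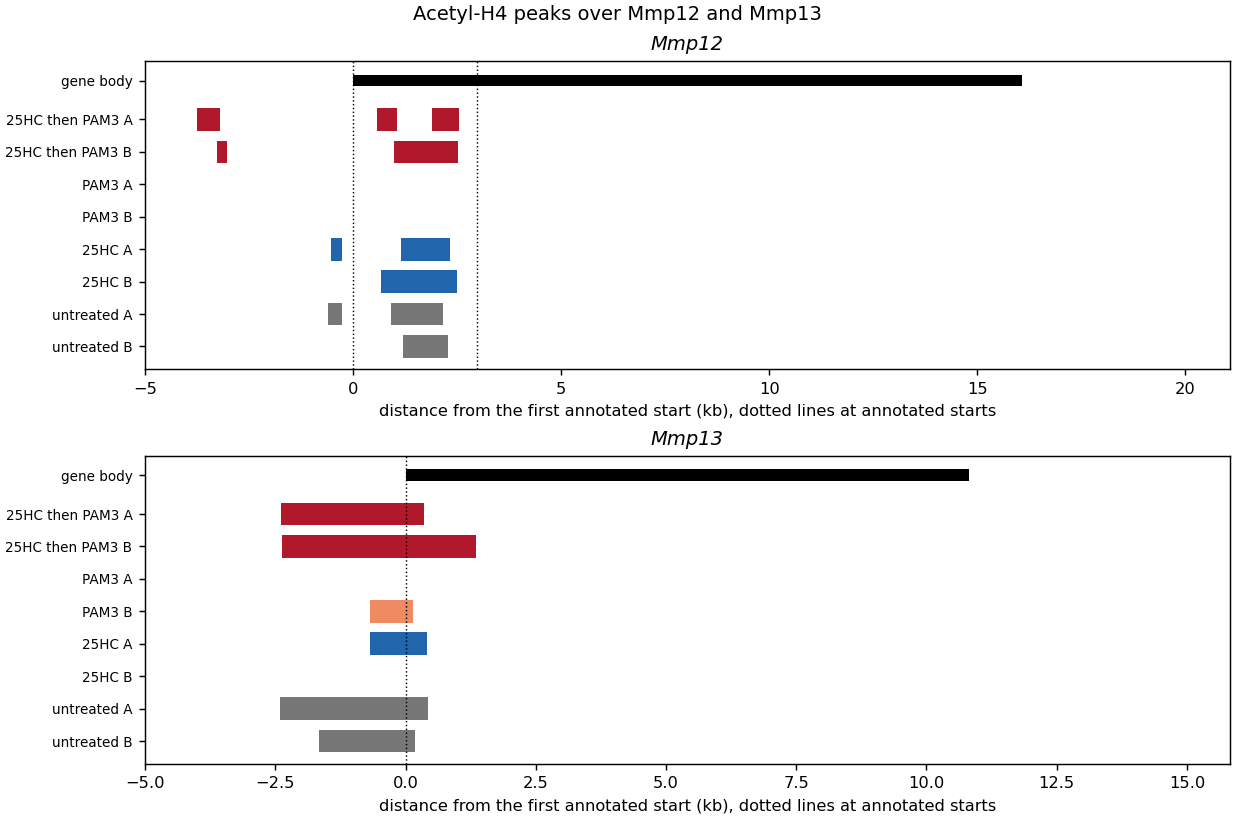
Peaks of each library (coloured bars) over Mmp12 and Mmp13 and 5 kb on either side, against distance from the first annotated start (kb); dotted lines mark annotated starts and black bars gene bodies. The PAM3 rows are empty at Mmp12, and the peak over the start of Mmp13 is missing in PAM3 mouse A and 25HC mouse B.

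Mmp8 (chr9:7558429-7568486) had 5590 and 6336 bp with 25HC then PAM3, 5975 and 6263 bp with PAM3, 4476 and 5397 bp with 25HC, and 7488 and 4879 bp in untreated cells. The untreated libraries differed most between the mice, and no comparison of Mmp8 passed. 25HC then PAM3 minus 25HC was 0.23 on the log2 scale (limma adjusted p = 0.593). The region over its start (chr9:7555963-7558961) was present in all 8 libraries, with 1684 and 2853 bp with 25HC then PAM3, 1444 and 890 bp with PAM3, 571 and 1514 bp with 25HC, and 978 and 1013 bp in untreated cells. A region farther upstream (chr9:7551836-7554837) had whole peaks of 2407 and 2672 bp with 25HC then PAM3, against 1122 to 1461 bp in the other 6 libraries. The extra length lay outside the 5 kb flank. Inside the window the region had 988 and 1079 bp with 25HC then PAM3 and 1116 and 1409 bp with PAM3. It had 1324 and 1357 bp there with 25HC, and 1384 and 1059 bp in untreated cells. A region inside the gene (chr9:7564159-7565810) was called at 782 and 1652 bp with PAM3 and at 924 bp in untreated mouse A only. Of the called length of Mmp8, 34% lay in the body of the neighbouring gene Mmp27. The neutrophil marker genes, relevant to Mmp8, Mmp9 and Adam8 because neutrophils also make these enzymes, summed to 8725 to 11881 bp with 25HC then PAM3, 10859 to 12538 bp with PAM3, 13933 to 14394 bp with 25HC and 15664 to 15693 bp in untreated cells. Single marker genes differed. S100a8 was longer with 25HC then PAM3, at 883 and 1859 bp, than in untreated cells, at 512 and 490 bp. Mpo had 519 bp with 25HC then PAM3 in mouse B and no peak in untreated cells. Elane, Ctsg, Ltf and Csf3r were shorter with 25HC then PAM3 than in untreated cells. The part of the neutrophil marker genes in the values of Mmp8, Mmp9 and Adam8 was not tested.

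Mmp9 and Mmp2 encode the gelatinases, which digest denatured collagen and the type IV collagen of basement membranes. Mmp9 (chr2:164940326-164955850) had 4070 and 6537 bp with 25HC then PAM3, 4088 and 6010 bp with PAM3, 3730 and 3910 bp with 25HC, and 5134 and 4810 bp in untreated cells. The lower library of each PAM3-treated group came from mouse A and overlapped the range of the groups without PAM3. No Mmp9 comparison passed, and 25HC then PAM3 minus 25HC was 0.37 on the log2 scale (limma adjusted p = 0.380). The average effect of PAM3, over 4 libraries with and 4 without, was 0.21 for Mmp9 (limma adjusted p = 0.422). Without mouse A or B of 25HC then PAM3, the difference from 25HC was 0.64 or 0.10 and the average effect 0.34 or 0.07.

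A short peak beside Mmp9 was called only with PAM3. The region (chr2:164938866-164939358) began 1460 bp before the lower-coordinate end of Mmp9 and had peaks of 220 and 377 bp with 25HC then PAM3, 378 and 464 bp with PAM3, and 0 bp in all 4 libraries without PAM3. This pattern was found at 1.68% of all regions and at 1 of the 33 regions of the 9 genes. The largest Mmp9 region (chr2:164940465-164943593) was present in all libraries, at 2651 and 2749 bp with 25HC then PAM3, 1926 and 2867 bp with PAM3, 2838 and 2855 bp with 25HC, and 3050 and 3048 bp in untreated cells. A region in the middle of the gene (chr2:164947144-164948556) was called at 1364 bp with 25HC then PAM3 in mouse B only, at 769 and 1322 bp with PAM3, in neither 25HC library, and at 824 and 708 bp in untreated cells. That region and 2 peaks called in 25HC then PAM3 mouse B alone made up most of the difference between the 2 mice of that group. Only 0.104% of the called length of Mmp9 lay in the body of another gene, Slc12a5.

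Mmp2 (chr8:92827290-92853421) had the least variable called length, with 5749 and 5736 bp with 25HC then PAM3, 6300 and 5712 bp with PAM3, 5570 and 5720 bp with 25HC, and 7211 and 6831 bp in untreated cells. Both untreated libraries were above the other 6, and the share of all genes with that order was not counted. No Mmp2 comparison passed, and 25HC then PAM3 minus untreated was −0.23 on the log2 scale (limma adjusted p = 0.386). The sum over the fibroblast marker genes was also highest in untreated cells, at 5324 to 7311 bp with 25HC then PAM3, 4323 to 5449 bp with PAM3, 5491 to 5915 bp with 25HC and 9112 to 9199 bp in untreated cells. Single genes differed. Pdgfra had 1901 and 2748 bp in untreated cells and 0 to 1022 bp elsewhere. Pdgfrb overlapped, with 6933 and 4925 bp with 25HC then PAM3 against 7298 and 5925 bp in untreated cells. Col1a1 was highest in 25HC mouse A, at 1121 bp, and Lum was called only in PAM3 mouse B. The part of these marker genes in the Mmp2 values was not tested, and 4 of the 8 had no peak in any library.

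Behind the even total, the single regions of Mmp2 differed between groups. A region in the second part of the gene (chr8:92849330-92850545) had no peak in the 4 libraries with PAM3, against 1154 and 1177 bp with 25HC and 1176 and 1111 bp in untreated cells. Regions called in all 4 libraries without PAM3 and in none with it made up 1.63% of all regions. A region in the middle (chr8:92839450-92840707) had 1139 and 1145 bp with 25HC then PAM3, 884 and 1252 bp with PAM3, no peak with 25HC, and 984 and 487 bp in untreated cells, a pattern found at 0.298% of all regions. A region at the lower-coordinate end of Mmp2 (chr8:92827288-92827770) had 329 and 327 bp with 25HC then PAM3, no peak with PAM3 or with 25HC, and 407 and 474 bp in untreated cells. That pattern, called with both agents and with neither, was found at 0.0756% of all regions. The longest region, at the other end of the gene, was called at 3215 to 3587 bp in all 8 libraries and reached into the neighbouring gene Lpcat2, whose body held 16% of the called length of Mmp2. These patterns were looked up after the peaks were seen and have no test.

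**Figure D3:**
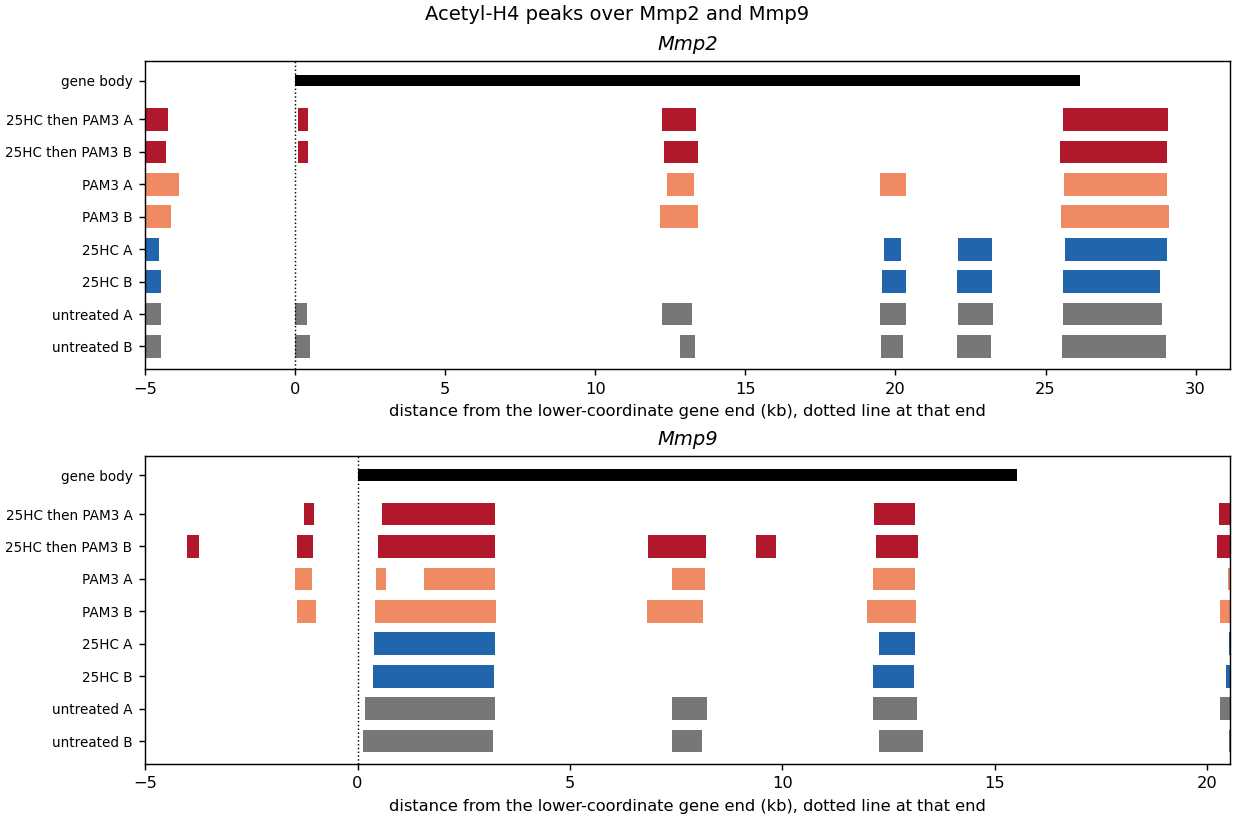
Peaks of each library (coloured bars) over Mmp2 and Mmp9 and 5 kb on either side, against distance from the lower-coordinate gene end (kb, dotted line); black bars are gene bodies. A peak about 22 kb into Mmp2 is called only without PAM3, and a short peak before Mmp9 only with PAM3.

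Mmp14 encodes a membrane-anchored metalloproteinase that activates the Mmp2 proenzyme. Mmp14 (chr14:54431598-54442456) had 6332 and 7579 bp with 25HC then PAM3, 6507 and 3715 bp with PAM3, 3725 and 4622 bp with 25HC, and 5560 and 5265 bp in untreated cells. Both 25HC then PAM3 libraries were above both 25HC libraries and both untreated libraries, whereas the PAM3 libraries lay far apart. The share of all genes with that order was not counted. 25HC then PAM3 minus untreated was 0.37 on the log2 scale (limma adjusted p = 0.532). 25HC then PAM3 minus 25HC was 0.65 on the log2 scale (SE 0.30, limma adjusted p = 0.299), and 25HC then PAM3 minus PAM3 was 0.44 (limma adjusted p = 0.572). The average effect of PAM3 on Mmp14 was 0.29 (limma adjusted p = 0.456), and 0.05 to 0.53 in fits that left out 1 library.

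PAM3 mouse B was the only library without a peak at the far end of Mmp14 (chr14:54441437-54444492), where the others had 2753 and 2981 bp with 25HC then PAM3, 3056 bp with PAM3, 1751 and 1755 bp with 25HC, and 2364 and 2055 bp in untreated cells. The region at the start of Mmp14 (chr14:54431550-54435198) had 2696 and 3649 bp with 25HC then PAM3, 2587 and 2656 bp with PAM3, 1095 and 1990 bp with 25HC, and 2311 and 2321 bp in untreated cells. There the 4 libraries with PAM3 all exceeded the 4 without. That order was looked up among the regions after the peaks were seen, its share of all regions was not counted, and it was not tested. Over whole gene windows, 7.11% of genes tested had all 4 libraries with PAM3 above the 4 without. The peaks began after the promoter window in all libraries except 25HC then PAM3 mouse B, where 98 of its 300 bp were covered. The body of the neighbouring gene Mrpl52 held 11.1% of the called length of Mmp14.

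Mmp19 encodes a secreted metalloproteinase that cuts basement membrane proteins. It was the only one of the 8 genes whose called length in both 25HC then PAM3 libraries exceeded that of the other 6, against 9.13% of all genes tested. Mmp19 (chr10:128790910-128800827) had 5238 and 6070 bp with 25HC then PAM3, 4441 and 3628 bp with PAM3, 3478 and 3489 bp with 25HC, and 3683 and 3360 bp in untreated cells. The difference did not pass. On the log2 scale 25HC then PAM3 minus 25HC was 0.60 (SE 0.17, limma adjusted p = 0.114), minus PAM3 0.43 (limma adjusted p = 0.319) and minus untreated 0.65 (limma adjusted p = 0.0839). PAM3 minus untreated was 0.22 for Mmp19 (limma adjusted p = 0.560), and the average effect of PAM3 was 0.41 (SE 0.12, limma adjusted p = 0.0891). The difference between the PAM3 responses of Mmp19 with and without 25HC was 0.38 (limma adjusted p = 0.694). With the mouse as a block, the limma adjusted p of Mmp19 was 0.146 against 25HC, 0.109 against untreated and 0.111 for the average effect. In fits that left out 1 library, the log2 difference was 0.54 to 0.66 against 25HC and 0.59 to 0.71 against untreated. The average effect on Mmp19 was then 0.29 to 0.53.

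The called length of Mmp19 came from 2 regions, of which 1 varied. The region over the lower-coordinate end of the gene (chr10:128790440-128794715) had 2897 and 3772 bp with 25HC then PAM3, 2126 and 1306 bp with PAM3, 1187 and 1210 bp with 25HC, and 1344 and 1077 bp in untreated cells. In the groups without PAM3 it was a single peak at that end. With 25HC then PAM3 a further peak of 1630 bp lay inside the gene in mouse A, and 1 joined peak of 3772 bp covered both places in mouse B. With PAM3 the further peak was called in mouse A, at 1076 bp, and not in mouse B. The other region (chr10:128803487-128806314), beyond the gene, had 2785 to 2801 bp with 25HC then PAM3, 2762 to 2776 bp with PAM3, 2320 to 2675 bp with 25HC and 2314 to 2744 bp in untreated cells. Those lengths are of whole peaks, which ran past the window and held 2279 to 2341 bp inside it. That region lies in the neighbouring genes Tmem198b and Dnajc14, whose bodies held 55.3% of the called length counted for Mmp19.

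**Figure D4:**
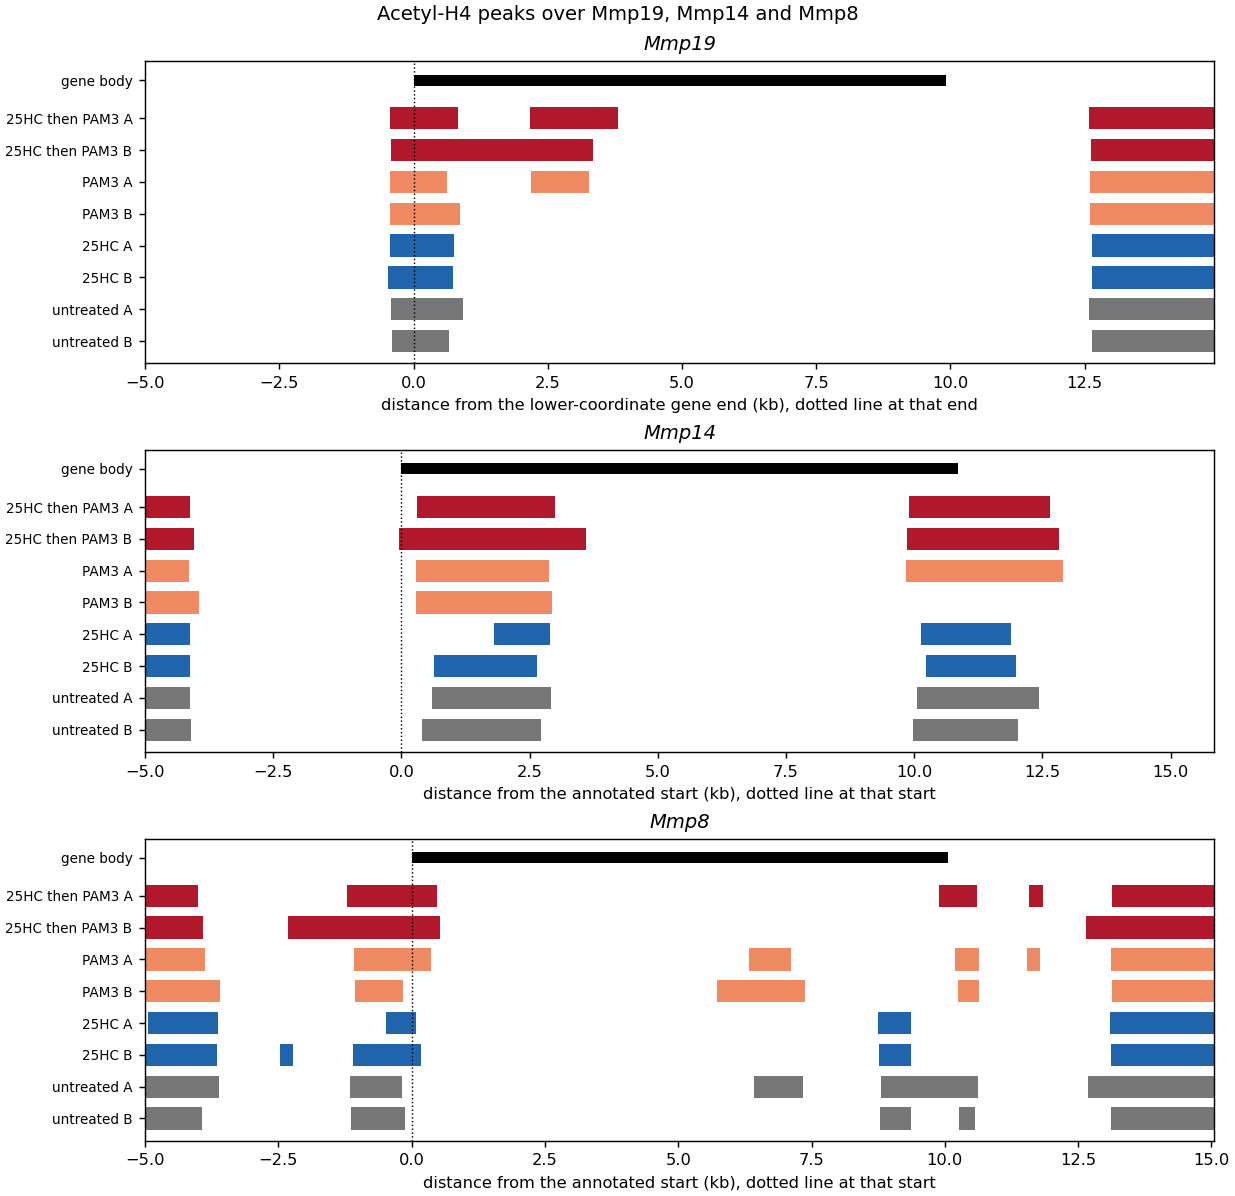
Peaks of each library (coloured bars) over Mmp19, Mmp14 and Mmp8 and 5 kb on either side, against distance from the annotated start or, for Mmp19, from the lower-coordinate gene end (kb, dotted line); black bars are gene bodies. A peak inside Mmp19 is called in both 25HC then PAM3 libraries and in PAM3 mouse A, and the far-end peak of Mmp14 is missing in PAM3 mouse B.

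Adam8 encodes a membrane protease of leukocytes that sheds surface proteins. Adam8 (chr7:139978932-139995207, minus strand) had 7105 and 6797 bp with 25HC then PAM3, 5921 and 6755 bp with PAM3, 6627 and 6680 bp with 25HC, and 8933 and 6593 bp in untreated cells. The start used for its promoter window (chr7:139992562) lies inside the gene body, short of its higher-coordinate end. Apart from untreated mouse A, the libraries lay between 5921 and 7105 bp and overlapped across groups. PAM3 minus untreated was −0.21 on the log2 scale (limma adjusted p = 0.505). All 4 of its regions were present in all 8 libraries. The promoter window of Adam8 (chr7:139992513-139992812) was covered at 300 and 300 bp with 25HC then PAM3, 300 and 300 bp with PAM3, 300 and 0 bp with 25HC, and 300 and 0 bp in untreated cells. It was thus uncovered only in mouse B without PAM3, where the region over it still had peaks of 1517 bp with 25HC and 1871 bp in untreated cells. The bodies of Spef1l and Tubgcp2 held 17.1% of the called length of Adam8.

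Timp1 encodes a secreted inhibitor of metalloproteinases that also binds the Mmp9 proenzyme. It had the least called length, with 0 and 0 bp with 25HC then PAM3, 290 and 249 bp with PAM3, 0 and 415 bp with 25HC, and 0 and 282 bp in untreated cells. Timp1 was thus called in both mice only with PAM3 alone, and in mouse B only with 25HC and in untreated cells. The share of all regions with that pattern was not counted. The mean of Timp1, 154.5 bp, was below the minimum for testing. All peaks lay in 1 region over the start of Timp1 (chrX:20870104-20870522), inside the body of Syn1. The Timp1 promoter is shown because the peaks reached into it, by 0 and 0 bp with 25HC then PAM3, 112 and 29 bp with PAM3, 0 and 108 bp with 25HC, and 0 and 58 bp in untreated cells. Capitals mark 3 matches to the ETS letters, at positions -175, -99 and 41.
Timp1 (chrX:20869916-20870215, plus strand): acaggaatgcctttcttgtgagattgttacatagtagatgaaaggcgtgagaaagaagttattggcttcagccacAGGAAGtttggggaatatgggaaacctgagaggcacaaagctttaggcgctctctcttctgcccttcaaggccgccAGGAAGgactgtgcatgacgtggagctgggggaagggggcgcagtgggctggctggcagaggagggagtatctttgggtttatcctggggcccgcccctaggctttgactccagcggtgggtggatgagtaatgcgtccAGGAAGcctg

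Set side by side, Mmp12 alone of the 8 genes tested passed in any of the 7 comparisons. With 25HC then PAM3 against 25HC, 0 of 8 passed in limma (2 had an unadjusted p under 0.05), against 5.02% of all genes. The median log2 difference of the 8 was 0.30, against −0.02 over all genes tested. With PAM3 against untreated the median was −0.12, against −0.01, and Mmp12 alone passed. With 25HC then PAM3 against PAM3 the median was 0.28, against 0.01, and Mmp12 alone passed. With 25HC against untreated, 0 of 8 passed and 0 had an unadjusted p under 0.05 in limma, against 0.0343% of all genes passing, and the median was −0.22, against 0.01. With 25HC then PAM3 against untreated, 0 of 8 passed in limma (1 had an unadjusted p under 0.05), against 7.62% of all genes, with a median of 0.21 against 0.00. In the average effect of PAM3, Mmp12 fell (limma adjusted p = 0.0169), as 1 of 8 genes against 11.8% of all genes in either direction and 5.88% lower. That average came from PAM3 against untreated, where PAM3 was at 0 bp, so its adjusted p can be too small. With 25HC, Mmp12 moved by 0.04 on the log2 scale (limma adjusted p = 0.961). The Mmp12 call in the average effect ended without 25HC mouse B, 25HC then PAM3 mouse B or untreated mouse A (limma adjusted p up to 0.0684). No gene of the 9 had all 4 libraries with PAM3 above the 4 without, or all below, against 7.11% and 9.66% of all genes tested. For the difference between the PAM3 responses with and without 25HC, 0 of 8 passed in limma (2 had an unadjusted p under 0.05), and 0% of all genes did (1438 of 14589 had an unadjusted p under 0.05). These comparisons share libraries and are not independent of each other.

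**Figure D5:**
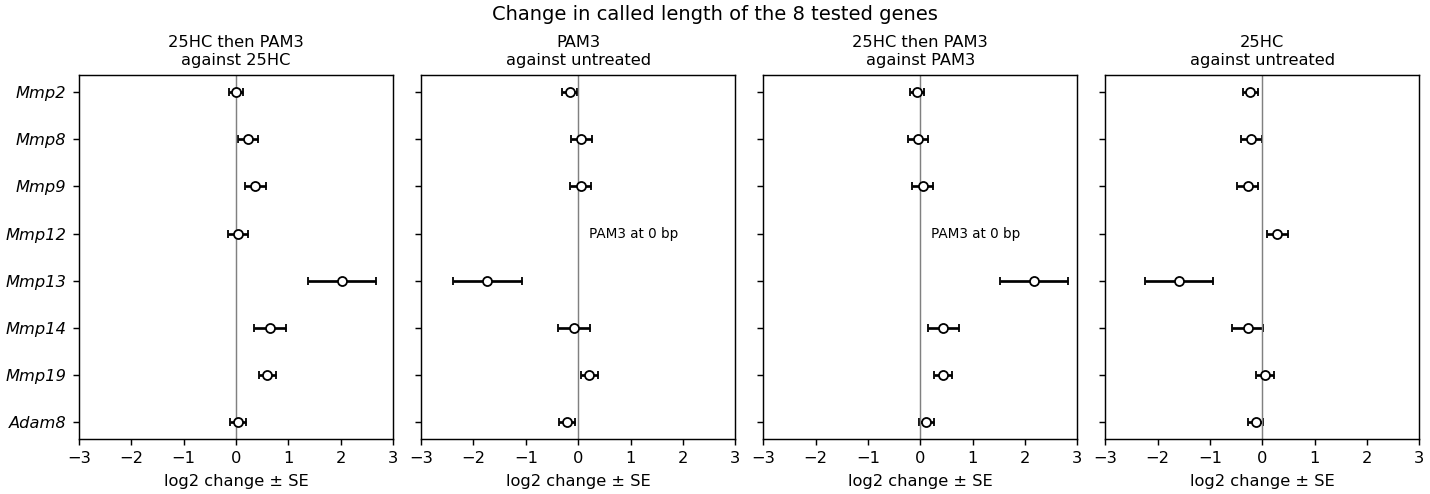
Differences in called length of the 8 genes tested (log2 scale, horizontal axis), with the first-named group minus the second and bars of 1 SE from limma; Mmp12 is left out where PAM3 is at 0 bp. Mmp13 has the widest errors and the largest differences, and none of the plotted differences passed.

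The wider set of genes for pericellular proteolysis comprised 42 other genes: metalloproteinases, ADAM and ADAMTS proteases, cathepsins, plasminogen-system genes, protease inhibitors and Bsg, which encodes an inducer of metalloproteinases. Of these, 28 were tested. No peak was called in any library at 9 of the 42, among them Mmp3 and Mmp10, the stromelysin genes, and Mmp7, the matrilysin gene. With 25HC then PAM3 against 25HC, 2 of 28 passed, both higher, against 2.73% of all genes, and 0 were lower. Reck, which encodes a membrane-anchored metalloproteinase inhibitor, had 5301 and 4818 bp with 25HC then PAM3, 2442 and 2426 bp with PAM3, 1886 and 1335 bp with 25HC, and 1575 and 1378 bp in untreated cells. Its log2 difference from 25HC was 1.38 (limma adjusted p = 0.0223). Adam10, a sheddase gene, rose by 1.09 (limma adjusted p = 0.0464; blocking on the mouse gave 0.0605), with 8699 and 13672 bp with 25HC then PAM3, 8406 and 10705 bp with PAM3, 4155 and 5469 bp with 25HC, and 5889 and 5345 bp in untreated cells.

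With 25HC then PAM3 against untreated, 2 of the 28 rose, against 3.8% of all genes, and 0 fell. These were Reck by 1.53 and the plasminogen activator inhibitor gene Serpinb2 by 0.97 (limma adjusted p = 0.0146 and 0.0330). Serpinb2 had 8167 and 9302 bp with 25HC then PAM3, 5639 and 8836 bp with PAM3, 4785 and 5872 bp with 25HC, and 3986 and 4713 bp in untreated cells. In the average effect of PAM3, 3 of 28 rose, against 5.94% of all genes (Reck 1.0, Adam10 0.92 and Serpinb2 0.67) and Mmp23 fell by 0.67 on the log2 scale (limma adjusted p from 0.0110 to 0.0482). With the mouse as a block, Mmp23 had an adjusted p of 0.0788 there in limma. None of the 28 passed with PAM3 against untreated, with 25HC then PAM3 against PAM3, with 25HC against untreated, or in the difference of the PAM3 responses in limma. Reck passed in 5 of the 8 fits without 1 library against 25HC (limma adjusted p up to 0.0755), in 6 against untreated (up to 0.0569) and in 8 for the average effect. Adam10 passed in 1 of 8 against 25HC (limma adjusted p up to 0.169) and in 4 for the average effect. Against untreated and for the average effect, Serpinb2 passed in 2 and 3 of 8 such fits (limma adjusted p up to 0.131) and Mmp23 in 1 for the average effect (up to 0.133), so most of these calls end when a single library is left out. The medians of the 28 were 0.16 for 25HC then PAM3 against 25HC and −0.01 for PAM3 against untreated.

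The genes with the pattern most like that of Mmp12 over the 8 libraries, by Pearson's r of median-centred log2 called length among 14010 genes whose windows did not overlap it, were Rab15 (r = 0.990), Sox7 (0.988) and Atg101 (0.985). All 3 were at 0 bp in both PAM3 libraries and between 890 and 1824 bp in the other 6. For Mmp19 they were Traf1 (r = 0.986), Ift46 (0.982) and Abhd5 (0.981). Traf1 had 10418 and 12268 bp with 25HC then PAM3, 7611 and 5787 bp with PAM3, 6437 and 5919 bp with 25HC, and 6538 and 5535 bp in untreated cells. These correlations were the highest of many and share libraries and depth, so they are descriptions.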

How the data were processed

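The submitters' processing notes name GSNAP, MACS2 2.1.0 and GRCm38 (mm10) for the acetyl-H4 ChIP-seq libraries. The sources used here give no controls or thresholds. Each deposited list gives the start and end of every peak, with the authors' score, fold ratio over background, and −log10 p and −log10 q. The authors' per-peak fold ratios and −log10 q values agreed poorly between libraries, so peaks were not ranked by them, and called length was used.

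Peaks were summed over gene bodies (RefSeq, GRCm38.p6) with 5 kb on either side. Of 21887 protein-coding genes, 14589 with a mean of at least 500 bp were tested on log2(called bp + 500), with each library's median subtracted. The log2 scale understates differences of genes with little called length. limma 3.58.1 (R 4.3.3; trend, robust) fitted a single model to the 4 groups. Genes pass at a Benjamini-Hochberg adjusted p under 0.05. The fit has 4 residual degrees of freedom, 3 with the mouse as a block. Scripts ran in Python 3.11.15 and were tested on simulated data.

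Per the labels, a letter marks the mouse, so that libraries of different groups are paired by mouse. Deviations from the group means of same-mouse libraries correlated by −0.0170 to 0.0304 between groups. The genes, lists and tests were chosen with earlier results of these data known. Genes named beyond the 9 were those of the wider list that passed, some of it without a peak, the 3 most like the 2 of the 9 with the lowest p for the average effect of PAM3, leaving out predicted, olfactory and vomeronasal receptor genes, marker genes and window neighbours. A gene of the wider list is not reported here. Alternatives were other pseudocounts, flanks, filters and peak subsets, no median subtraction, the mouse as a block and leaving out each library.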

Additional observations from a re-analysis of the deposited data

Results flagged for a closer look

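Mmp13 was the only one of the 8 genes tested whose called length moved in opposite directions with PAM3, in both mice, depending on 25HC. With 25HC, PAM3 minus no PAM3 was 1.02 in mouse A and 3.04 in mouse B on the log2 scale. Without 25HC it was −2.58 in mouse A and −0.89 in mouse B. The difference of 3.76 between these responses of Mmp13 did not pass when tested (limma with Benjamini-Hochberg adjustment, adjusted p = 0.280). Opposite signs in both mice, in either order, were found in 1447 of 14589 genes (9.92%), a share near 1 of 8. With pseudocounts of 100 and 2000 bp the difference was 6.15 and 1.88. The Mmp13 values rest on 1 region, which was uncalled in PAM3 mouse A and in 25HC mouse B.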

How the results depend on the processing

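Of the log2 differences of named genes recomputed under the alternatives, 457 kept their direction and their side of the threshold, 79 kept their direction but no longer passed, 6 passed newly and 11 changed sign. The number of the 8 genes that passed went to 0, against 1 (Mmp12), with peaks of −log10 q of at least 5, with 10 kb flanks and with libraries brought to equal covered length, in each of PAM3 against untreated, 25HC then PAM3 against PAM3 and the average effect of PAM3. Mmp12 then had limma adjusted p-values of 0.481, 0.325 and 0.547, of 0.163, 0.193 and 0.225, and of 0.115, 0.150 and 0.145 in those comparisons. Every Mmp12 peak had a −log10 q of at least 16.28, so the −log10 q minimum removed none of them. With that minimum, no gene of the whole set passed in those comparisons. With the mouse as replicate block (a paired fit) 0 genes passed for 25HC then PAM3 against PAM3, and Mmp12 had an adjusted p of 0.0730. The block changed no other call of the 8. Without 1 library the number of genes that passed was 0 to 1 for PAM3 against untreated, for 25HC then PAM3 against PAM3, against 25HC and against untreated, and 0 to 3 for the average effect, where Mmp19, Mmp14 and Mmp12 passed without PAM3 mouse B. Signs changed with peaks of −log10 q of at least 5 for the difference of the PAM3 responses of Mmp19 (−0.048), the average effect on Mmp14 (−0.080), and Mmp2 against untreated (0.60). So did those of Serpinb2 (−0.28 against untreated, −0.17 for the average effect) and Mmp23 (0.75 for the average effect). With equal covered length, Mmp2 had 0.27 and Mmp23 0.80, and with no flank Mmp8 had −0.22 for 25HC then PAM3 against 25HC. Without 1 library, PAM3 against untreated was −0.022 to 0.45 for Mmp19 and 25HC then PAM3 against PAM3 −0.032 to 0.92 for Mmp14. The alternatives with a −log10 q minimum or equal covered length rest on per-peak values that agreed poorly between libraries; the cause was not tested. The minimum peak length of 500 bp was chosen after seeing the data. Over all genes, the number that passed was 0 to 891 for 25HC then PAM3 against 25HC (733 as reported), 0 to 872 for PAM3 against untreated (564), 0 to 434 for 25HC then PAM3 against PAM3 (190), 0 to 97 for 25HC against untreated (5), 0 to 1217 for 25HC then PAM3 against untreated (1112), 0 to 192 for the difference of the PAM3 responses (0) and 0 to 1948 for the average effect (1724). For 25HC then PAM3 against PAM3 no gene passed with the −log10 q minimum, with equal covered length, with the mouse as replicate block, or without either 25HC or either untreated library, and 2173 genes had an unadjusted p under 0.05 as reported. For 25HC then PAM3 against 25HC none passed with the −log10 q minimum or equal covered length. With the block, 281 genes passed for 25HC then PAM3 against 25HC, 168 for PAM3 against untreated, 575 for 25HC then PAM3 against untreated, 0 for 25HC against untreated and 1236 for the average effect. With the −log10 q minimum, Mmp9 had 3.03 for 25HC then PAM3 against 25HC and 1.64 for the average effect, without passing. Read depth is unknown, and each group holds 2 libraries.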

Other observations

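The authors' per-peak values behaved unlike the peak positions. Between the 2 libraries of a group, matched peaks (overlap of at least 50% of the longer; 32828 to 36590 peaks) had a Spearman rho across peaks of 0.914 to 0.921 for peak length, 0.106 to 0.210 for the deposited fold enrichment and 0.087 to 0.174 for the deposited −log10 q. Neighbouring peaks of 1 library had a rho of 0.535 to 0.559 for −log10 q. The peaks of Mmp8, Mmp12 and Mmp13, which lie near each other on chromosome 9, had median deposited −log10 q values of 61.4, 48.5 and 38.3, against 3.55 to 11.7 for the other 6 genes. Peaks are not independent replicates, so no test is given, and the cause was not tested.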
